A study of Mus musculus with 4 samples.

Results

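Gene expression in the heart of mice labelled as lacking MnSOD in heart and muscle (d/d) was compared with that in the heart of floxed control mice (f/f). The comparison covered every gene that could be measured on either of the 2 heart arrays, which were 13941 of the 18193 genes named on the platform. Per the labels, d/d mice came from a cross of mice homozygous for the floxed MnSOD gene with MCK-Cre transgenic mice, and f/f mice carry the flox alleles and served as the control. MCK is muscle creatine kinase, so the Cre recombinase is made in heart and skeletal muscle fibres, and the fibroblasts, vessels and immune cells of the heart are not its target. Age, sex, strain, the number of mice behind an array and whether the f/f mice carried the transgene are not stated by the labels. The series also holds 1 array each of d/d and f/f muscle, which are used below for values set beside those of the heart.

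MnSOD, encoded by Sod2, turns superoxide formed in the mitochondrial matrix into hydrogen peroxide. Without it, superoxide can damage enzymes that hold iron-sulphur clusters, among them aconitase and subunits of the respiratory chain. The heart relies on mitochondrial oxidation, mainly of fatty acids, and a failing ventricle is known for extracellular matrix deposition, a return of fetal muscle genes and a lower expression of fatty acid enzymes.

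There was 1 array for each genotype, which allows neither a test between genotypes nor an error between animals, so each difference below describes a pair of arrays. Signals are deposited intensities brought to a common trimmed mean, with 58.0% of probe sets above a floor of 7.51 units on the d/d heart array and 61.1% on the f/f heart array. The log2 signals of the pair correlated with a Pearson r of 0.973 across probe sets. A gene was represented by its brightest probe set in heart, and its other probe sets served as a technical check. The log2 difference varied between probe sets of a gene with an SD of 0.388 over 5375 genes, which measures disagreement between probes and not between animals. Differences are d/d minus f/f on the log2 scale, higher and lower genes are those past 2-fold, and a fold against an array at the floor is given as a lower bound. Over all measured genes the median difference was -0.05, 45.3% were above 0, and the interquartile range ran from -0.35 to 0.27. The 3′ to 5′ signal ratio of Actb was 1.37 in d/d against 1.40 in f/f heart and that of Gapdh 0.899 and 0.847, while the 3 control probe sets for 18S ribosomal RNA read 1.64-fold to 2.58-fold higher in d/d heart. Of 41 probe sets for added bacterial and phage transcripts with at least 20 units on both heart arrays, 39 read higher in d/d heart, with a median ratio of 1.23. The part of these shifts in the results below was not tested.

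All 4 probe sets of Sod2 itself were lower in d/d heart, the brightest ones by the least. The signals in d/d and f/f heart were 1927 and 2330, 1859 and 2156, 211 and 363, and 29.2 and 67.8, so that 1 of the 4 passed 2-fold. In muscle the same probe sets read 1732 and 1667, 1123 and 1236, 325 and 401, and 45.5 and 61.6. Where these probe sets lie in relation to the deletion was not analysed here, and those that lie outside it do not check it. Of 22 listed genes that lie beside Sod2, 12 were on the platform and 11 were measured, with a median difference of -0.07. Tcp1, a chaperonin subunit, read 898 and 945, and Mrpl18, a mitochondrial ribosomal protein, 481 and 605. Fndc1 was the 1 neighbour past 2-fold, at 105 against 49.0, but at 12.8 against 9.01 on its other probe set, and it was under 2-fold with 16 units added in place of the floor.

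Of the measured genes, 545 (3.91%) were higher by 2-fold or more in d/d heart and 585 (4.20%) lower. Counts of list members past 2-fold are to be read against these shares, and several lists below lie near them. All lists were written with earlier results of these data known, so a share past 2-fold is in part a matter of that choice. The higher genes had the larger differences, with 60 of them past 4-fold and 19 past 8-fold, against 39 and 3 of the lower genes. A floor set 125 of the higher and 205 of the lower genes as lower bounds. The lower genes were the dimmer ones. Among genes whose brighter array read 1000 or more, 22 of 577 were higher and 9 were lower, while among those below 20 units 87 of 3604 were higher and 181 lower.

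Probe sets gave a check within the same pair of arrays. Of the 545 higher genes, 316 had only 1 measured probe set. All probe sets passed 2-fold for 73 of the other 229 genes (31.9%), and all lay above 0 for 181 (79.0%). Of the 585 lower genes, 197 had 2 or more probe sets, of which 49 (24.9%) passed 2-fold on all of them and 149 (75.6%) lay below 0 on all. Among all 6486 genes with 2 or more measured probe sets, these 73 and 49 genes were 1.13% and 0.755%. Genes that held on every probe set were brighter than those that did not, with a median brighter signal of 222 against 70.7 for the higher and 145 against 33.5 for the lower genes. Another probe set was past 2-fold in the opposite direction for 9 of the higher and 2 of the lower genes.

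**Figure D1:**
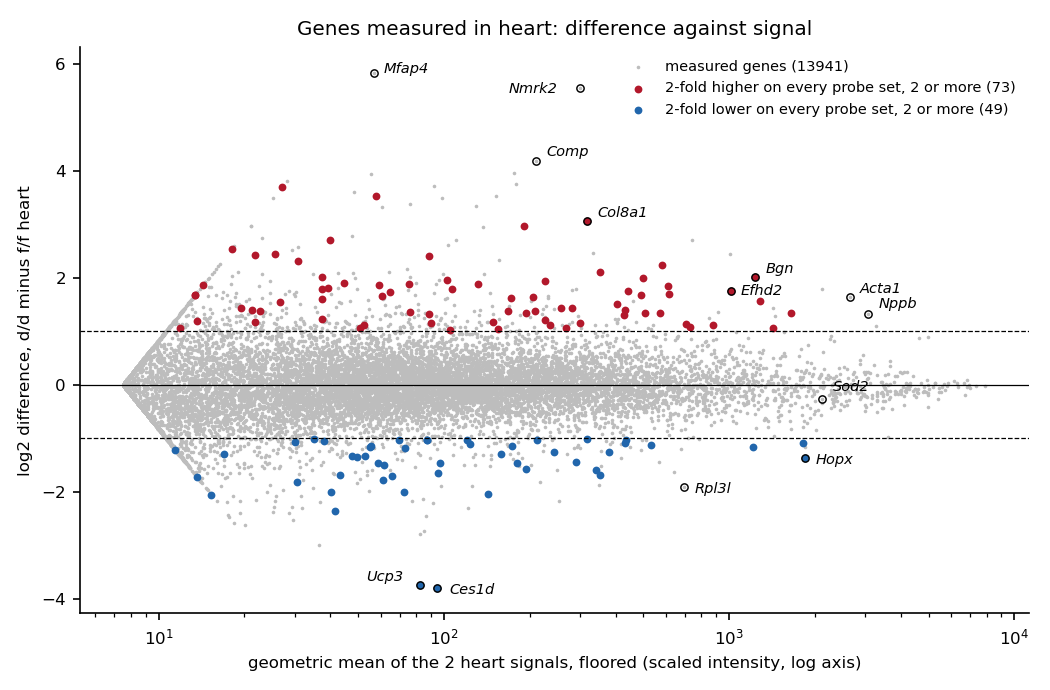
Log2 difference between d/d and f/f heart (vertical axis) against the geometric mean of both heart signals (horizontal log axis, scaled intensity units) for the 13941 measured genes, 1 point each, from 1 array per genotype. Red and blue points are the 73 higher and 49 lower genes whose 2 or more probe sets all passed 2-fold (dashed lines), and the diagonal edges on the left are genes with 1 array at the floor of 7.51.

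The genes that were highest on every probe set included genes outside the matrix. Adcy7, an adenylyl cyclase, read 203 in d/d against 51.9 in f/f heart, and its 3 probe sets lay within 0.03 of each other, at 1.95 to 1.98. Vgll3, a cofactor of TEAD transcription factors, read 73.7 and 21.1 and differed by 1.73 to 1.82 over 3 probe sets. Itih5, a heavy chain of the inter-alpha-trypsin inhibitors, read 445 and 116, with 3 probe sets between 1.76 and 1.96. Efhd2, a calcium-binding protein that binds actin, read 1858 and 551 on its brightest probe set and 379 and 103 on the other. Dbn1, the actin-binding protein drebrin, read 86.25 and 23.04, and Plcxd2 50.6 and 9.44. These genes were picked for a large difference on their least different probe set. That rule favours probe sets that agree, so their agreement is no separate check.

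Ces1d, a carboxylesterase, was the lower gene with the largest difference among those that held on 3 probe sets, with values of -3.80, -3.44 and, as a bound, -2.85. Cep128, a centriole protein, read 36.05 and 146 in d/d and f/f heart and was 4.03-fold lower, with 2 further probe sets at -3.02 and -1.84. Rbfox1, a splicing regulator of heart and muscle, read 70.5 and 290 and lay at -2.04, -1.65 and -1.38 on its 3 probe sets. Hamp, which encodes the iron hormone hepcidin, read 33.1 and 114, and Gpr22, an orphan receptor of the heart, 53.7 and 168. Adhfe1, a mitochondrial transhydrogenase, read 176 and 479, and Retsat, retinol saturase, 112 and 335. Each of these 4 had a second probe set within 0.37 of the first and past 2-fold.

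**Figure D2:**
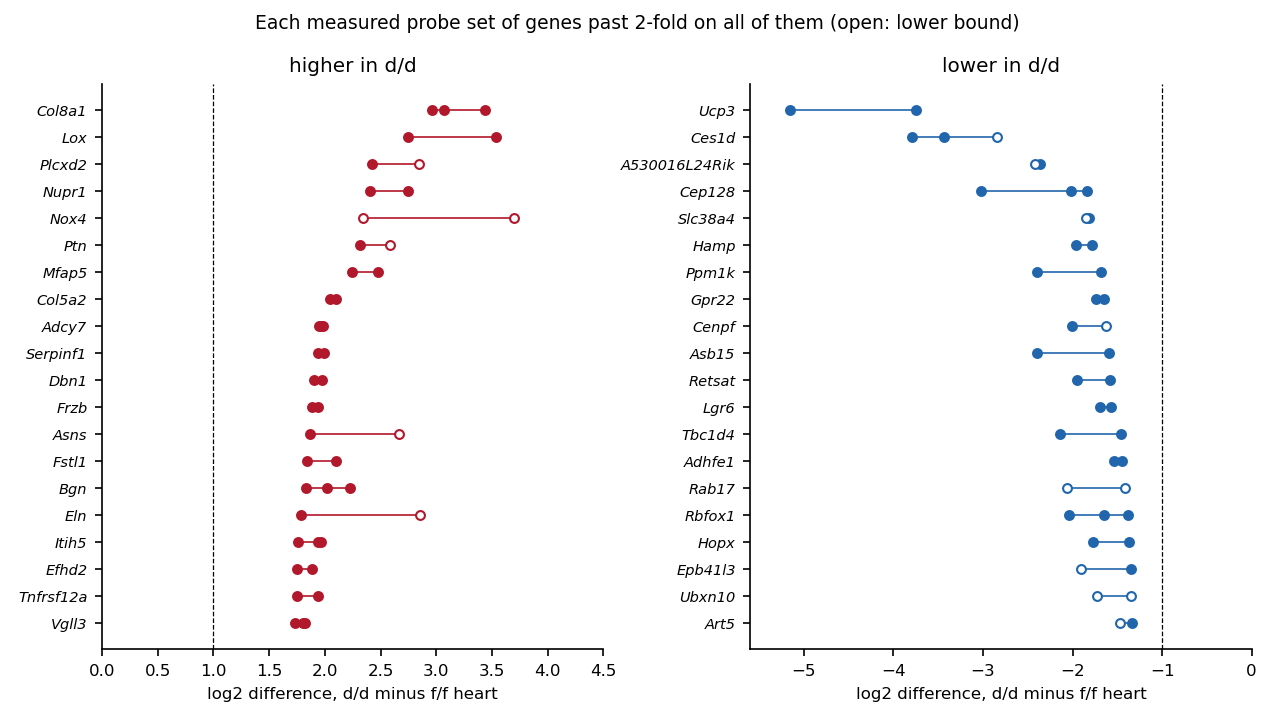
Log2 difference between d/d and f/f heart on each measured probe set of the 20 higher (left, red) and 20 lower (right, blue) genes with the largest smallest difference over their probe sets. Points are probe sets of 1 array pair, open points are lower bounds, and dashed lines mark 2-fold. Adcy7 lies between 1.95 and 1.98 on its 3 probe sets, while those of Ucp3 lie at -3.75 and -5.15.

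Some of the brightest genes past 2-fold are products of muscle fibres. Fhl1, a LIM protein of the sarcomere, read 2269 in d/d against 929 in f/f heart, Ankrd23, an ankyrin repeat protein of the titin filament, 1317 and 552, and Synpo2l, an actin-associated protein of the Z-disc, 2330 and 865. Synpo2l held on its next probe sets, at 1.46 and 2.13, but not on its dimmest, which was a bound of -0.52. Ppp1r3c, which targets a phosphatase to glycogen, was 2.97-fold higher at 2210 against 744, with 741 against 254 on its other probe set. On the low side, Rpl3l, the muscle form of a ribosomal protein, read 359 and 1355 and was 3.78-fold lower, on 1 probe set. Hopx, a cardiac homeodomain protein, read 1150 and 2978, and 293 and 1003 on its other probe set. Ttll1, a tubulin glutamylase, read 362 and 1127, but only 50.6 and 93.1 on its other probe set. Hrc, a calcium-binding protein of the sarcoplasmic reticulum, and Corin, the protease that activates atrial natriuretic peptide, fell just short of 2-fold, at 1.93-fold and 1.96-fold lower.

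The list for the fibrillar and matricellular matrix had the most higher genes of the 60 lists, and also the most measured members. By share of higher genes it came after activated fibroblast markers (88.2%) and tendon, cartilage and valve markers (52.6%). It was written with earlier results of these data known. Of 80 entries 75 were on the platform and all 75 were measured. Of these, 39 (52.0%, against 3.91% of all genes) were at least 2-fold higher and 2 (2.67%, against 4.20%) lower. A further 34 were within 2-fold, 64 of the 75 were above 0, and the median difference was 1.07 against -0.05 for all genes. Among the 39 higher genes, 17 had 2 or more probe sets that all passed 2-fold. In RNA from heart tissue, more cells of a type and more RNA per cell cannot be told apart.

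Collagens differed in size from chain to chain. Of 42 collagen genes on the platform, taken by symbol, 34 were measured, 10 were at least 2-fold higher, 0 lower, and the median difference was 0.66. Col8a1, a short-chain collagen of vessels, read 922 and 110, with 3 probe sets between 2.96 and 3.44, and Col12a1, a collagen that binds to fibrils, 84.8 against a signal at the floor, although its other probe set read 15.7 and 10.6. Col5a2, a fibril collagen, read 731 and 170. Of the main fibril chains, Col1a1 read 407 and 132 and Col1a2 1114 and 342, while Col3a1 was 1.98-fold higher, at 2191 against 1105. The basement membrane chain Col4a1 read 1648 and 1051, a 1.57-fold difference.

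Of the matrix metalloproteinases, which cut the matrix, 12 were measured, 3 were higher and 0 lower, with a median of 0.49. Mmp2 read 386 and 185, and 405 and 156 on its other probe set. Lysyl oxidases cross-link collagen and elastin. All 4 measured lysyl oxidase genes were above 0 and 3 passed 2-fold, with Lox at 196 against 16.9 and, on its other probe set, 129 against 19.3. Eln, elastin, read 199 and 57.7, Mfap5, a microfibril protein, 1270 and 268, and Mfap4 429 against a signal at the floor. Fmod, Bgn and Dcn are small leucine-rich proteoglycans, which coat collagen fibrils. Fmod, fibromodulin, held on 6 probe sets at 1.66 to 2.97, and Bgn, biglycan, on 3 probe sets at 1.83 to 2.23, with the brightest at 2481 against 613. Dcn, decorin, was only 1.46-fold higher, at 3557 against 2434. The 2 lower genes of the list are also proteins of elastic fibres, Efemp1, fibulin-3, at 11.1 against 57.6, and Emilin2 at 46.0 against 109.

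The basement membrane and adhesion lists join cells to the matrix. Of 24 measured basement membrane genes 5 (20.8%, against 3.91% of all genes) were at least 2-fold higher. Another 2 (8.33%, against 4.20%) were lower, and the median was 0.57. Sparc, a collagen-binding glycoprotein, read 2063 and 986, while Lamb3, a laminin chain of epithelia, read 47.1 and 112 and Frem2 17.2 and 59.7. Of 37 measured integrin and focal adhesion genes 4 were higher and 1 lower, with a median of 0.16. Itgb5, an integrin chain for vitronectin, held on 4 probe sets at 1.07 to 1.39, with the brightest at 1048 against 476. Tns1, tensin, read 1746 and 1758, and Fermt2, kindlin-2, 1248 and 1337. The annexins and S100 proteins, which bind calcium and membranes, were above 0 in 16 of 17 measured genes with a median of 0.71, and 3 passed 2-fold. Anxa3 read 380 and 136, Anxa1 603 and 272, S100a13 544 and 252, and Anxa5 1086 and 653.

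**Figure D3:**
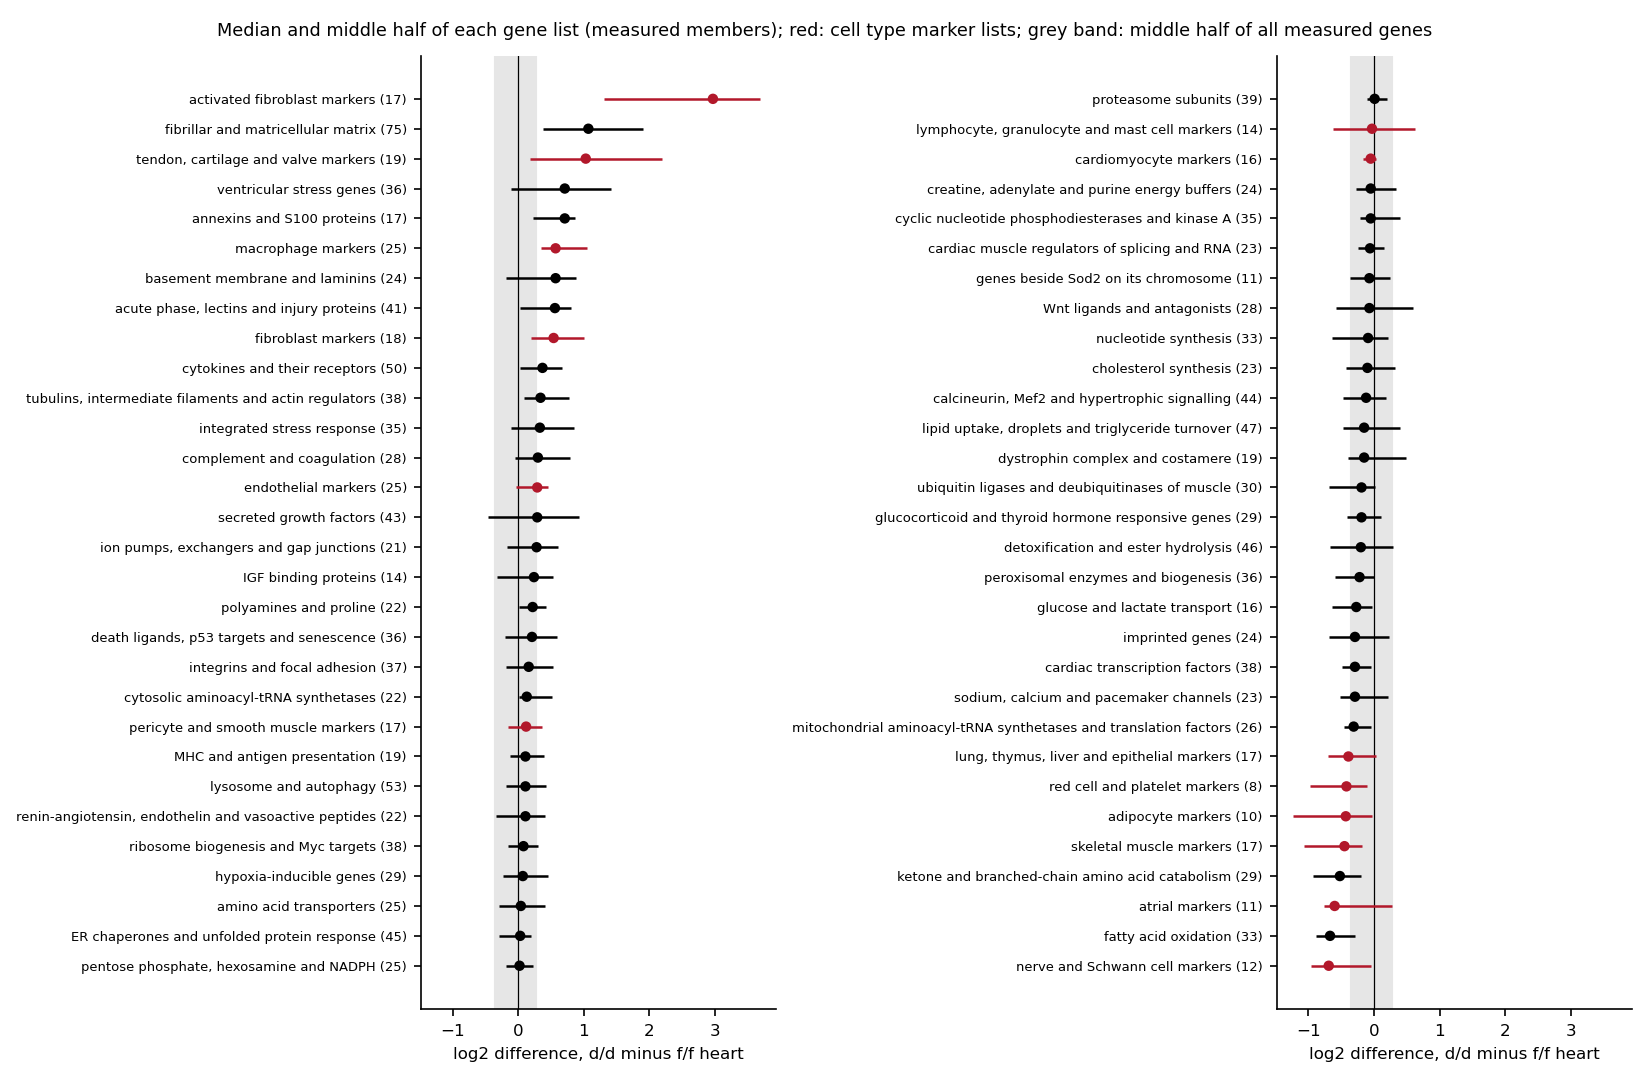
Median (points) and interquartile range (lines) of the log2 difference between d/d and f/f heart over the measured members of each of 60 gene lists, whose number is in brackets. Cell type marker lists are red, and the grey band is the interquartile range of all measured genes, -0.35 to 0.27. Activated fibroblast markers (2.97) and the fibrillar matrix (1.07) lie farthest to the right, and nerve markers (-0.69) and fatty acid oxidation (-0.67) farthest to the left.

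The list of ventricular stress genes holds genes taken to respond to load or failure. It was written with earlier results of these data known, so its share past 2-fold is in part a matter of that choice. Of 36 measured stress genes 15 (41.7%, against 3.91% of all genes) were at least 2-fold higher. Another 4 (11.1%, against 4.20%) were lower, and the median was 0.71. Nmrk2, a nicotinamide riboside kinase, read 2041 in d/d against 43.8 in f/f heart on its single probe set. Postn and Ccn2, matricellular proteins on both this and the matrix list, read 1895 and 291 and 2348 and 430. Myh7, the slow and fetal myosin heavy chain, read 3953 and 1140, and Nppb, brain natriuretic peptide, 4873 and 1945. Enah, an actin polymerase partner, read 1468 and 571, and 5 further probe sets were also above 0, between 0.46 and 1.79. Uchl1, a deubiquitinase, read 155 and 41.4, and Rcan1, an inhibitor and target of calcineurin, 700 and 266 with 439 and 190 on its other probe set. The 16 cardiomyocyte markers had a median of -0.05 and a summed signal of 72197 in d/d against 75648 in f/f heart. Ryr2, the calcium release channel, was the 1 marker past 2-fold, at 809 against 1812 and 23.4 against 65.1 on its other probe set.

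The cytoskeleton list, of tubulins, intermediate filaments and actin regulators, had 6 of 38 measured genes higher and 0 lower, with a median of 0.34. Krt18, a keratin, read 86.9 and 23.2, and Capg, an actin capping protein, 98.1 and 39.5 but 12.8 and 15.6 on its other probe set. Tubb2a read 349 and 140 on a probe set that can share sequence with other tubulins, and 6.10 and 12.4 on the other, so its direction is uncertain. Gelsolin, Gsn, read 4451 and 3767. The dystrophin complex and costamere list had 1 of 19 genes higher and a median of -0.15.

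Secreted growth factors had 10 of 43 measured genes higher (23.3%, against 3.91% of all genes) and 3 lower (6.98%, against 4.20%). Of the 43 genes 28 were above 0, and the median was 0.29. Ptn, pleiotrophin, read 68.5 and 13.8 and on its other probe set 45.1 against the floor. Fstl1, a follistatin-like glycoprotein, read 1157 and 323 on the first probe set and 1043 and 243 on the second. Pdgfc, a platelet-derived growth factor, read 118 and 35.6, and Hbegf, an EGF receptor ligand, 424 and 157. Fgf1 was lower on all 3 of its probe sets, at -0.94, -1.21 and -0.92, with the brightest at 444 against 850. Of the lower genes Igf2 read 76.6 and 173.

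Wnt ligands and antagonists had 3 of 28 measured genes higher (10.7%) and 1 lower (3.57%), against 3.91% and 4.20% of all genes. The median was -0.07, and all 4 genes past 2-fold encode secreted frizzled-related antagonists. Sfrp2 read 332 and 29.4 on 1 probe set. Frzb read 254 and 68.5, and 112 and 29.2 on its other probe set. Sfrp1 was higher on all 5 of its probe sets, at 0.89 to 2.07. Sfrp4 was the lower gene, at 8.84 against 25.3, a difference that did not hold with another treatment of the floor.

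IGF binding proteins had 3 of 14 genes higher (21.4%, against 3.91% of all genes) and 0 lower. They were led in signal by Igfbp7 at 2616 against 1031, and 55.9 against 25.7 on its other probe set. In the list of angiotensin, endothelin and other vasoactive peptides 3 of 22 measured genes were higher and 1 lower. Ace, angiotensin-converting enzyme, read 140 and 55.9, and 85.4 and 10.3 on its other probe set, and Ednrb, an endothelin receptor, 331 and 128, with smaller differences of 0.64 and 0.61 on its other probe sets. Ramp1, a receptor partner for calcitonin gene-related peptide, was lower at 27.5 against 93.7. Of 35 genes of cyclic nucleotide signalling 1 was higher, Akap2, a kinase A anchor, at 1059 against 502. Calcineurin, Mef2 and related signalling genes were even, with 4 of 44 higher and 4 lower. Rgs2, which restrains G protein signals, was lower on all 4 of its probe sets, with 108 against 310 on the brightest, and the phosphatase Dusp4 read 71.0 and 17.0.

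Cytokines and their receptors had 5 of 50 measured genes higher and 3 lower, and 38 were above 0, with a median of 0.37. Tnfrsf12a, the receptor for the ligand TWEAK, read 810 and 241 on the first probe set and 776 and 203 on the second. Ctf1, cardiotrophin 1, a ligand of the gp130 receptor, was lower at 30.8 against 93.6. Complement and coagulation genes had 5 of 28 higher (17.9%) and 1 lower (3.57%), with a median of 0.30. Serpinf1, a secreted serpin, read 993 and 249, and 400 and 105 on its other probe set. F2r, the thrombin receptor, read 910 and 361, and 713 and 236. Genes of the acute phase, lectins and injury proteins had 8 of 41 higher (19.5%) and 3 lower (7.32%), with a median of 0.56. Serpina3n differed by 3.93, Lgals3 by 3.53 and Timp1 by 3.33. The 3 lower genes were Retnla at -2.41, Lgals4 at -2.32 and Alox5 at -1.27. Of the 41 values 10 were lower bounds, and 0 of the 8 higher genes had 2 or more probe sets that all passed 2-fold. Lgals1, galectin-1, was 1.76-fold higher at 3086 against 1756, and Gpnmb, a glycoprotein of macrophages, read 59.0 against the floor. Antigen presentation genes had 0 of 19 higher and 1 lower, with H2-K1 at 1408 against 1375.

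The integrated stress response is the program in which phosphorylation of a translation initiation factor lowers general protein synthesis and raises ATF4, which turns on genes for amino acid supply and redox balance. Of 35 measured genes of this list 7 were at least 2-fold higher, 0 lower, and the median was 0.33. ATF4 binds a composite C/EBP and ATF element, searched here as the letters TGATGNAA on either strand in the 250 bases before and 50 after the start of each gene in the RefSeq promoter table. Such letters are in 1219 of 27025 genes (4.51%) and in 10 of the 33 list genes with a promoter (30.3%), 2 of the 6 past 2-fold and 6 of the 24 measured within 2-fold. The 150 bases before the start are shown, 5′ to 3′ on the strand of the gene, for the 2 higher genes that hold the letters and for Atf3, which holds them and was within 2-fold, with the match in capitals, read from the other strand in Nupr1 and Atf3 (RefSeq, build GRCm38.p6). Asns lies at chr6:7693210-7693359, minus strand, Nupr1 at chr7:126625471-126625620, minus strand, and Atf3 at chr1:191183334-191183483, minus strand.
Asns: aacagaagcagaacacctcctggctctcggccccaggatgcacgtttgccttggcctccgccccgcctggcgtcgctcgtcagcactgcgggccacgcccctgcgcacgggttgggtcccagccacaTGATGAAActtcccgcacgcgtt
Nupr1: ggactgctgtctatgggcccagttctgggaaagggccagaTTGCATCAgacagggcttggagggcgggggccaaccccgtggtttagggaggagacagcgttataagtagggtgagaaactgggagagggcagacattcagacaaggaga
Atf3: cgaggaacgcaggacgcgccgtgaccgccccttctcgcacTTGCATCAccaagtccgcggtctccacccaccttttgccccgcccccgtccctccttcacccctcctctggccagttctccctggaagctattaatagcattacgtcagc

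Nupr1, a stress-induced nuclear protein, read 204 in d/d against 38.6 in f/f heart, and 169 and 25.2 on its other probe set. Asns, asparagine synthetase, read 114 and 31.1, and 47.6 against the floor on its other probe set. Atf3, a transcription factor of the same response, read 42.2 and 48.0, a difference of -0.19. Mthfd2, a mitochondrial enzyme of folate metabolism, read 65.0 and 21.5 on one probe set and 114 and 9.35 on the other. Aldh18a1, the first enzyme of proline synthesis, read 122 and 50.8, and its 4 further probe sets ran from -0.35 to 1.07. Slc7a5, a transporter of large neutral amino acids, read 32.4 against the floor. Vldlr, a lipoprotein receptor on the list, was lower on all 6 of its probe sets, at -0.02 to -1.05, with 1544 against 2389 on the brightest.

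Aminoacyl-tRNA synthetases charge tRNAs with amino acids. The medians of both lists lay within the interquartile range of all genes, but that range is a spread of single genes and not of list medians. Of 22 measured genes for the cytosol 18 were above 0, with a median of 0.13 and 0 past 2-fold in either direction. Nars, for asparagine, read 756 and 408, and 495 and 304 on its other probe set, and Gars, for glycine, 463 and 272. Of 26 measured genes for mitochondrial synthetases and translation factors 5 were above 0, with a median of -0.31, and the difference between the lists was not tested. Cars2, for cysteine, was the 1 gene past 2-fold, at 48.6 against 100, and 38.4 against 82.1 on its other probe set, a call that was lost when 16 units were added in place of the floor. Lrpprc, which stabilises mitochondrial mRNA, read 252 and 364, and the elongation factor Gfm1 463 and 590. Chaperones and the unfolded protein response of the endoplasmic reticulum had a median of 0.03, with 0 of 45 genes higher and 2 lower, and Hspa5, the main chaperone of that compartment, read 1018 and 1497, and 877 and 1344 on its next probe set.

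The fatty acid oxidation list holds enzymes of the pathway and genes linked to it. Its members were mostly below 0, by less than 2-fold in most of them. Of 33 measured genes 30 were below 0, and the median was -0.67. At least 2-fold lower were 7 (21.2%, against 4.20% of all genes), and 1 was higher. This list, too, was written with earlier results of these data known. The lower genes were Ucp3, Acot1, Ehhadh, Angptl4, Pdk4, Acaa2 and Cpt2, not all of them enzymes of oxidation. Of 10 measured acyl-CoA dehydrogenases, taken by symbol, 9 were below 0 and 0 past 2-fold, with a median of -0.30. Acaa2, the mitochondrial thiolase, read 1245 and 2666, 753 and 1657, and 714 and 1561, so that its 3 probe sets lay within 0.04 of each other at -1.10 to -1.14. Ucp3, a mitochondrial carrier, read 22.5 and 303 on the first probe set and 9.81 and 348 on the second. Pdk4, the kinase that closes pyruvate dehydrogenase, read 1235 and 2766. Cpt2, a carnitine acyltransferase, was lower at 552 against 1114, but its dim second probe set read 17.3 and 12.6, and it was under 2-fold with arrays scaled to their medians. Hadh and Hadhb, which act in the last steps of each cycle, read 4325 against 5740 and 3815 against 4403. The peroxisomal list had 2 of 36 genes lower, 0 higher and a median of -0.22, and its bright member Ech1, an isomerase, was 1.97-fold lower at 2563 against 5038.

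In the list for the breakdown of branched-chain amino acids and ketone bodies, the genes past 2-fold were all of the branched-chain pathway. It was also written with earlier results of these data known. Of 29 measured genes 26 were below 0, 6 (20.7%) were at least 2-fold lower, 0 were higher, and the median was -0.52. Ppm1k, the phosphatase that activates the branched-chain ketoacid dehydrogenase, read 197 and 632, and 60.5 and 319 on its other probe set. Dbt and Bckdhb, subunits of that dehydrogenase, read 145 and 341 and 227 and 454, while Bckdha read 345 and 442. Ivd, for the next step in leucine breakdown, read 343 and 938, and 410 and 781 on its other probe set. Aldh6a1, of valine breakdown, read 346 and 712, and Mmut, the mutase that leads to succinyl-CoA, 223 and 453. Bckdk, the kinase that opposes Ppm1k, read 180 and 217, a difference within the SD between probe sets. No ketone gene passed 2-fold, and Bdh1, of ketone use, was among the 3 genes above 0, at 1216 against 822. The aminotransferases Got1 and Got2 were close to even, at 2773 against 3050 and 2758 against 3170.

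Other fuel lists had medians nearer to 0. Glucose and lactate transport had 2 of 16 genes lower, 0 higher and a median of -0.27. Tbc1d4, which controls the surface level of the glucose transporter GLUT4, read 109 and 300, and 20.2 and 89.4 on its other probe set. The lactate transport partner Bsg read 3868 and 4125. Lipid uptake and storage genes had 2 of 47 higher, 3 lower and a median of -0.15. Dgat2, for triglyceride synthesis, read 360 and 791, and 220 and 512, while Fabp3 read 6246 and 6474. The creatine and adenylate buffers had 0 of 24 genes past 2-fold, with Ckm at 4097 against 4256 and Ckmt2 at 4150 against 4381. Nadk2, the mitochondrial NAD kinase, was the 1 gene past 2-fold among 25 of pentose phosphate and NADPH metabolism. It read 173 and 424 on the brightest probe set. Of its 4 probe sets, 3 were past 2-fold, and the other, a dim one, read 14.8 and 29.5, just under it.

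**Figure D4:**
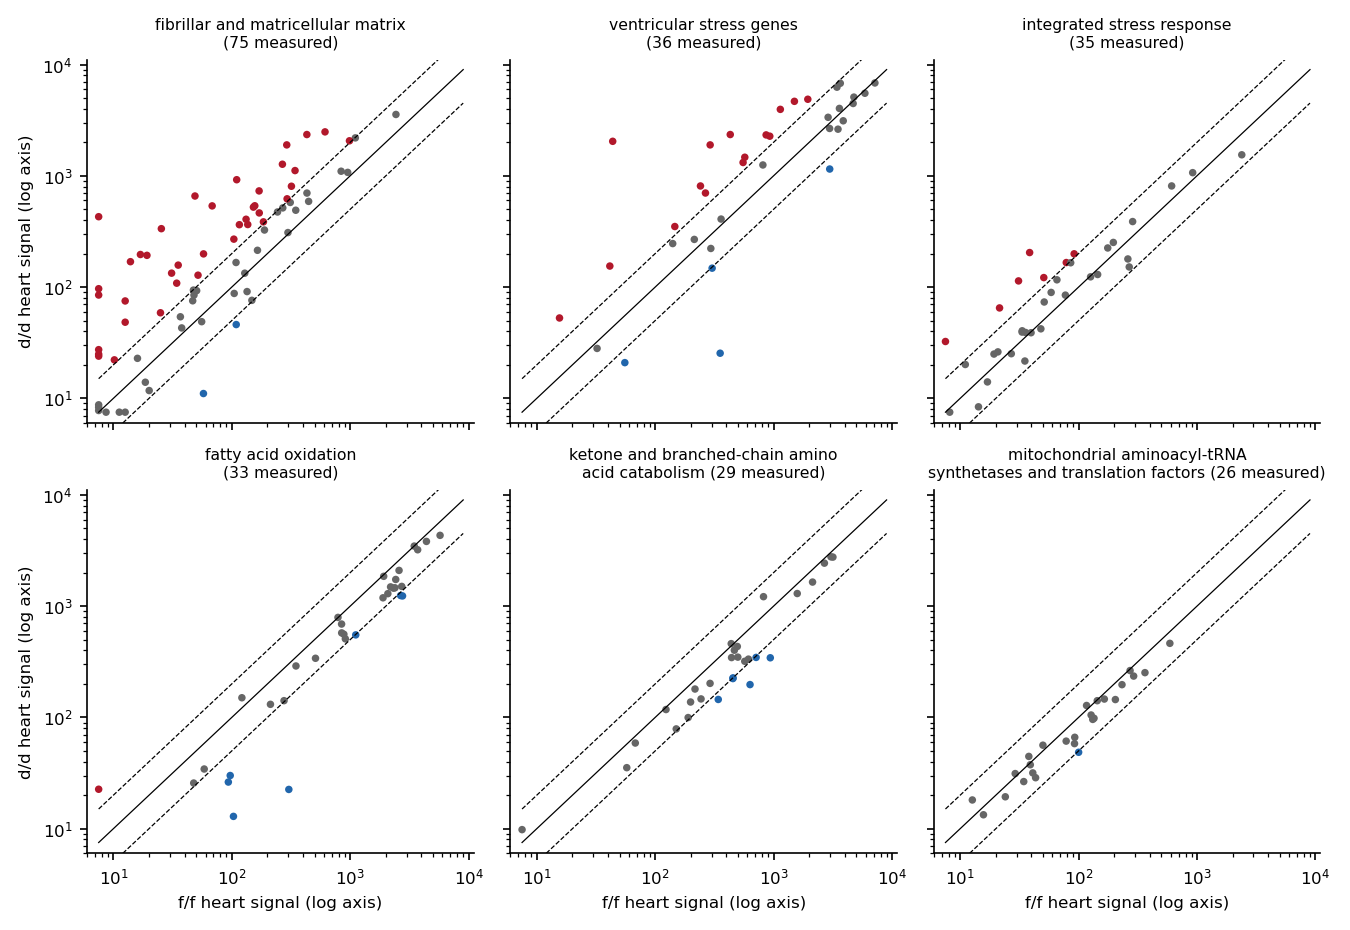
Signal in d/d heart (vertical) against f/f heart (horizontal), both on log axes in scaled intensity units, for the measured members of 6 gene lists, 1 point per gene from 1 array pair. Red points are at least 2-fold higher and blue points at least 2-fold lower (dashed lines), and the solid line marks equal signals. The matrix list has 39 red points, whereas the fatty acid and branched-chain lists lie mostly just below the solid line, with 7 and 6 blue points.

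Potassium channel genes, grouped by symbol, had a median of -0.46. Of 80 on the platform 48 were measured, and 8 of these were lower and 2 higher, against 4.20% and 3.91% of all genes. Kcnip2 and Kcnd2, an accessory and a pore subunit of the transient outward current, read 304 and 622, and 84.0 and 172, and every probe set of both was at least 2-fold lower. Kcnh2, a pore subunit of the rapid delayed rectifier, read 86.0 and 247. Sodium, calcium and pacemaker channels had 1 of 23 genes higher, 1 lower and a median of -0.29. The chloride channel protein Clic5 on that list was 1.75-fold higher, at 1095 against 624, and its 3 further probe sets lay at 0.87 to 0.97. The gap junction gene Gja1 read 2398 and 2686, with all 5 of its other probe sets also below 0. Cardiac transcription factors were below 0 in 29 of 38 measured genes with a median of -0.29, but only 1 was at least 2-fold lower and 1 higher. Klf9 read 1195 and 1360, and Tbx20 725 and 508.

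Of 29 genes known to respond to glucocorticoid or thyroid hormone 2 were higher and 2 lower. Dio2, the deiodinase that forms active thyroid hormone inside cells, read 244 in d/d against 23.6 in f/f heart, and 106 and 16.7 and 19.3 and 11.4 on its other probe sets. Cebpd, a transcription factor, read 223 and 99.0. Muscle ubiquitin ligases had 0 of 30 genes higher and 3 lower, with a median of -0.19. Asb15 read 197 and 594, and 17.3 and 91.0 on its other probe set, and Usp2, a deubiquitinase, 200 and 436. Proteasome subunits had a median of 0.01, and Psmb10, an immunoproteasome subunit, was the 1 of 39 past 2-fold, at 406 against 185. Lysosome and autophagy genes had 4 of 53 higher (7.55%, against 3.91% of all genes) and 1 lower (1.89%, against 4.20%), with a median of 0.11. Ctsz, a cathepsin, held on 3 probe sets at 1.30 to 1.57, with 672 against 273 on the brightest. Nucleotide synthesis had 2 of 33 genes higher and 0 lower, and Uck2, a uridine kinase, was higher on all 6 of its probe sets, at 0.41 to 1.91.

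Other lists had medians between -0.29 and 0.28, and their shares past 2-fold are given against the 3.91% and 4.20% of all genes. Detoxification genes had 3 of 46 higher (6.52%) and 6 lower (13%). Maob, monoamine oxidase B, read 116 and 407, while Aldh1a1, which forms retinoic acid, read 398 and 149 and Cyp1b1 139 and 40.7. Cholesterol synthesis had 0 of 23 higher and 2 lower (8.70%), and Hsd17b7, a reductase of the pathway, was lower on all 3 of its probe sets, with 36.9 against 104 on the brightest. Amino acid transporters had 3 of 25 genes (12%) on each side, among them Slc36a2, a proline and glycine carrier, at 32.2 against 97.3. The polyamine and proline list had 1 of 22 higher (4.55%), Aldh18a1. Death ligand, p53 and senescence genes had 3 of 36 higher (8.33%) and 0 lower, each of them under 2-fold with 16 units added in place of the floor. Hypoxia-inducible genes had 1 of 29 higher (3.45%), Ppp1r3c, and 1 lower (3.45%), Hif3a. Hif3a lay above 0 without scaling, with a lower floor, with 16 units added, and once probe sets that can share sequence were left out. Its direction is therefore uncertain. Ribosome biogenesis had 1 of 38 higher (2.63%), Rrp12, which was also under 2-fold with 16 units added. Imprinted genes had 0 of 24 higher and 3 lower (12.5%). Cardiac regulators of splicing had 0 of 23 higher and 2 lower (8.70%), with Khdrbs3, an RNA-binding protein, at 82.0 against 202. Ion pumps, exchangers and gap junctions had 2 of 21 higher (9.52%) and 1 lower (4.76%). Fxyd6, a regulator of the sodium pump, read 246 and 88.0.

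Of the marker lists for other cells, those of activated fibroblasts, of tendon, cartilage and valve, of macrophages and of fibroblasts had the highest medians, from 0.54 to 2.97. Activated fibroblast markers were higher in 15 of 17 measured genes, 0 were lower, and their summed signal was 8186 in d/d against 2226 in f/f heart. This list was written with earlier results of these data known, and 8 of its higher genes are also on the matrix list. Comp, a cartilage matrix protein, read 900 and 49.2, Cilp 696 and 44.9, Thbs4 658 and 48.9, and Meox1, a transcription factor of activated fibroblasts, 352 and 69.6. Acta2, smooth muscle actin, also a marker of myofibroblasts, read 1094 and 1335 and was the 1 gene of the list below 0. The general fibroblast markers had 5 of 18 higher and 1 lower, with a summed signal of 13185 and 8634. Pdgfra, which marks fibroblasts in the resting heart, read 268 and 173, Tcf21 198 and 173, and Scara5 was lower at 40.2 against 176. Of tendon, cartilage and valve markers 10 of 19 measured genes were higher, 6 of which are also activated fibroblast markers, and 5 more, Acan, Cilp2, Col10a1, Matn1 and Mkx, were at the floor on both arrays. The part of these cells in the matrix differences was not tested.

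Macrophage markers had 7 of 25 genes higher and 2 lower, 22 above 0, and a summed signal of 4425 in d/d against 3042 in f/f heart. Mpeg1 read 203 and 48.3 and Ctss 348 and 117, while Csf1r, which defines the lineage, read 710 and 548 and Lyz2 674 and 661. The 2 lower genes were Folr2, with a difference of -1.45, and Cd163, with -1.30. Of the 25 values 2 were lower bounds. Endothelial markers had 1 of 25 higher and summed to 10747 and 9377, and pericyte and smooth muscle markers 1 of 17 higher, with sums of 9402 and 9118. Of 22 lymphocyte, granulocyte and mast cell markers 8, among them Cd3d, Cd3e, Cd3g and Cd4, were at the floor on both arrays, and the list summed to 226 and 209. Atrial markers had 1 of 11 lower, 7 below 0 and a median of -0.60, with Myl7 at 1234 against 2193. Their sums of 10283 and 8583 went the other way and lay mostly in d/d heart in Nppa, at 6781 against 3658. Adipocyte markers had 3 of 10 lower and a median of -0.43, with Adipoq at 10.4 against 46.6. Their sums of 4182 and 4797 include Fabp4, which is also on the endothelial list. Nerve markers had 3 of 12 lower, all under 30 units in f/f heart, with 9 below 0 and a median of -0.69. Their sums of 5279 and 5393 include Cryab and Pmp22, the brightest members. Red cell and platelet markers had 2 of 8 lower, with sums of 552 and 692. Of lung, thymus, liver and epithelial markers 2 of 17 were higher, Krt8 and Krt18, and 2 lower, with sums of 293 and 319. The skeletal muscle markers had 5 of 17 lower and 1 higher, Actn3, Myf6, Myog and Tnnt3 were at the floor on both arrays, and the summed signal of 5173 against 2277 lay mostly in Acta1, at 4668 against 1499.

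The muscle arrays give the same contrast in another tissue. Of the 12693 genes measured in both tissues, 294 (2.32%) were at least 2-fold higher and 419 (3.30%) at least 2-fold lower in d/d muscle. Of the 493 higher heart genes measured in both, 14 were also higher in muscle (2.84% of the heart list and 4.76% of the muscle list) and 53 were lower in muscle (10.8% and 12.6%). Of the 521 lower heart genes, 47 were also lower in muscle (9.02% and 11.2%) and 17 were higher (3.26% and 5.78%). The matrix genes measured in both tissues, 71 in number, had a median of 1.06 in heart and -0.51 in muscle, where 59 were below 0 and 14 were at least 2-fold lower. Cell markers differed in muscle too, with a median of -0.48 for fibroblast markers, 17 of 18 below 0, -0.73 for activated fibroblast markers and -0.75 for cardiomyocyte markers, 7 of 14 of them at least 2-fold lower. Their part in the muscle values was not tested. Bgn, for example, read 74.96 in d/d against 222 in f/f muscle. Macrophage markers were at 0.59 and -0.58 over 22 genes. For 32 fatty acid genes the medians were -0.67 in heart and 0.02 in muscle, and for 29 branched-chain and ketone genes -0.52 and 0.05. Pdk4, Angptl4 and Ucp3 were the 3 fatty acid genes that were at least 2-fold lower in both tissues, with differences in muscle of -1.82, -2.40 and -1.55.

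**Figure D5:**
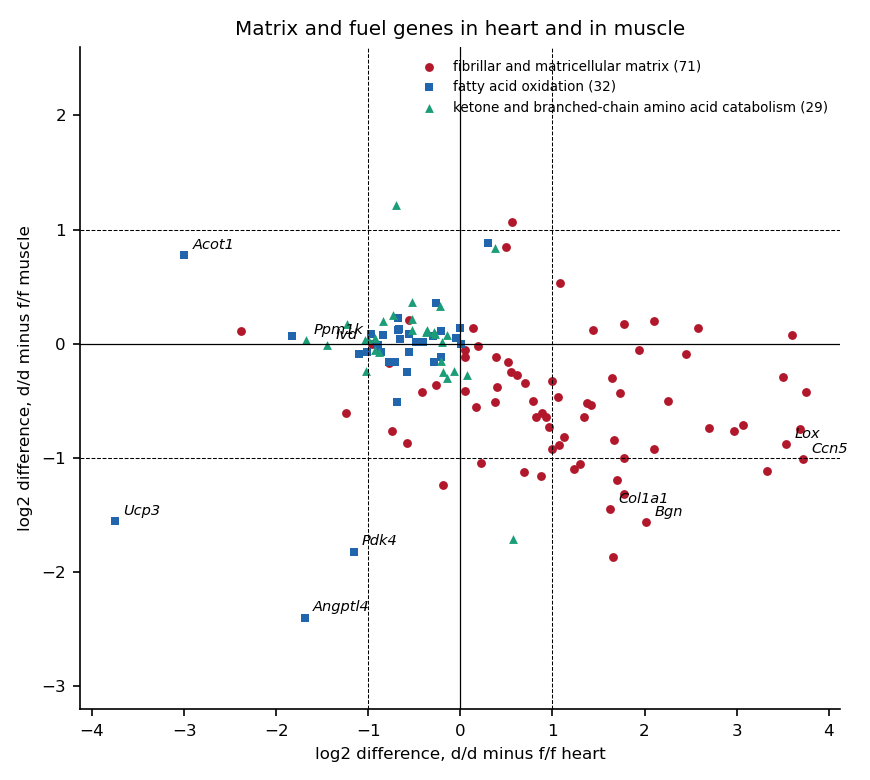
Log2 difference between d/d and f/f in muscle (vertical) against that in heart (horizontal) for members of 3 gene lists measured in both tissues, 1 point per gene, each tissue with 1 array per genotype. Dashed lines mark 2-fold. Matrix genes (red circles, 71) lie mostly to the lower right, fatty acid genes (blue squares, 32) and branched-chain and ketone genes (green triangles, 29) mostly to the left at about 0 in muscle, and Pdk4, Angptl4 and Ucp3 at the lower left.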

How the data were processed

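Expression was measured on 4 mouse oligonucleotide arrays, 1 per tissue and genotype, grouped by their titles and tissue labels. The authors deposited 1 linear intensity per probe set and array, and the sources used here do not say how these were made from the scans. They carry no detection call, and their number of 1 array per group limits the precision. Here each array was scaled to the mean of the 4 arrays' 2% trimmed means over 45037 probe sets, leaving out 64 control probe sets. The floor was the mean of the arrays' 40th percentiles, and signals were floored before log2. GEO's platform annotation named 34945 probe sets for 1 gene, 932 for several (named for none here) and listed no gene for 9160. Of their ids, 34741 matched RefSeq's gene table, with 0 symbols updated. A gene was measured when at least 1 heart array was above the floor, so a gene that entered through its brighter array only is included with a bound.

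A rule set 304 genes as the named genes. They are Sod2, the 20 higher and 20 lower genes most extreme on every probe set, the 12 largest differences in each direction among genes with a signal of 1000 or more, the 5 largest bounds per direction, and per list up to 4 members past 2-fold and the 2 brightest. Counts of named genes below are over all 304. The text prints only part of them, and that part was not set by a rule. Other names were chosen after their values were seen: Fhl1, Ankrd23, Enah, Uchl1, Efemp1, Emilin2, Hbegf, Atf3, Bckdhb, Bckdha, Mmut, Bckdk, Bdh1, Kcnip2, Kcnd2, Kcnh2, Meox1, Pdgfra, Tcf21, Mmp2, Nppb, Folr2, Cd163, Retnla, Lgals4 and Alox5, and the markers at the floor. The members and the 60 lists (1986 entries, 1813 on the arrays) were chosen with earlier results of these data known. Other scalings, floors and probe set choices were tried. Steps were checked on simulated data. Python 3.11.15, numpy 2.4.6, pandas 2.3.3, scipy 1.17.1, statsmodels 0.14.6 and matplotlib 3.10.9 were used.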

Additional observations from a re-analysis of the deposited data

Results flagged for a closer look

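Of the named genes, 19 differed in opposite directions in heart and muscle, each past 2-fold, and the difference between the tissues was not tested, with 1 array per group. Given as the heart difference minus the muscle difference (log2), the genes higher in d/d heart and lower in d/d muscle were Cilp at 5.89, Tnmd at 5.23, Ccn5 at 4.73, Dio2 at 4.61, Timp1 at 4.44, Bgn at 3.58, Col1a1 at 3.07, Fstl1 at 2.96, Tnfrsf12a at 2.93, Col1a2 at 2.89, Eln at 2.79, Pi16 at 2.77, Rrm2 at 2.62, Aqp8 at 2.34 and Ctsk at 2.26. Those lower in heart and higher in muscle were A530016L24Rik at -3.71, Itga2b at -2.98, Acot3 at -2.20 and Mvk at -2.04. Bgn, Fstl1, Tnfrsf12a, Col1a2, Eln, Rrm2 and A530016L24Rik held in heart on every probe set.

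Control probe sets outside the gene comparison also stood out. The 3 for 18S ribosomal RNA read 1.82-fold, 2.58-fold and 1.64-fold higher in d/d than in f/f heart, and the one for the B1 repeat 1.75-fold, at 3567 against 2039. The probe sets for added bacterial and phage transcripts were shifted too: over 41 of them the ratio of d/d over f/f heart ran from 0.926 to 1.55, with 39 above 1, and in muscle over 41 from 0.667 to 1.24, with 11 above 1.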

How the results depend on the processing

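Counts turned on the treatment of signals near the background. With a floor at the 20th percentile 1502 genes were higher and 1921 lower, 112 and 132 of them on every probe set. With a floor at the 60th percentile 322 were higher and 246 lower, and with 16 units added in place of a floor 226 and 164, or 39 and 20 on every probe set. Without scaling 538 genes were higher and 821 lower, and the median of all genes moved to -0.11. The share of higher genes among those past 2-fold was 48.2%, against 39.6% without scaling, 57.9% with 16 added and 56.7% with the higher floor. Quantile, loess and median scaling, the median over probe sets (which gives no value for counts on every probe set) and leaving out probe sets that can share sequence kept the counts within 1.5 times. Of 195 named genes past 2-fold, 123 were past it in the same direction under each of the 9 settings and 72 were under it in at least 1. 3 genes reversed: Tubb2a at -0.72 and Laptm5 at -0.62 once probe sets that can share sequence were left out, and Hif3a at 0.43 without scaling, 0.49 with the floor at the 20th percentile, 0.22 with 16 added and 0.49 without those probe sets. All 34 lists with a median at least 0.2 from 0 kept their sign under these settings, and 25 of 540 pairs of list and setting moved by over 0.2. The median of the tendon, cartilage and valve markers ran from 0.53 to 1.94. No paired analysis was possible because each group holds 1 array. With 1 array per group no replicate could be left out.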
